A study of Mus musculus with 4 samples.

Results

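Krüppel-like factors (KLFs) are transcription factors that bind GC-rich and CACCC elements in DNA through zinc fingers at their C-terminal end. Klf2 and Klf4 are best known in blood vessels, where laminar flow induces them and where they hold endothelial cells in a quiescent state, and Klf4 is also a pluripotency factor. Klf6 and Klf10 are early response genes. Klf6 is induced in injured liver, and Klf10, also called TIEG1, is induced by TGF-β and follows the hepatic clock. N6-methyladenosine (m6A) is written in messenger RNA by the METTL3 complex, in sequences such as GGACT and often near the stop codon, and it can affect the splicing, decay and translation of the RNA.

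The 4 genes held 8 distinct peaks, 2 in each gene, of 12815 peaks in 7835 genes in the deposited peak table. They were chosen by gene name as every peak overlapping Klf2, Klf4, Klf6 or Klf10, with the IP and input reads of these libraries already known, so the values below are a description and were not tested. Liver poly(A) RNA came from Mettl3flox/flox mice (flox) and from HKO mice (Mettl3 flox/flox Alb-Cre). Both were on the C57BL/6 background, ate normal chow and were 8 weeks old. Both carry the floxed allele and differ by Cre, and Alb-Cre acts in hepatocytes, so endothelial, Kupffer and stellate cells of HKO liver keep Mettl3. RNA from several mice was pooled, and RNA bound by an m6A antibody (IP) and RNA before binding (input) were sequenced, with 1 library per genotype and fraction. Mettl3 itself had no row in the peak table, so its loss could not be checked there.

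The 4 libraries held 14972301 to 18365473 reads. With 1 library per group, no difference had a replicate check. The 95% intervals below cover read counting error only, and PCR copies make them too narrow. Enrichment is the IP level over the input level of the same genotype, with each count scaled to the total of its library (RPM), and a value was called lower or higher when it differed at least 2-fold between HKO and flox. Every listed peak had an enrichment over 1 in flox and in HKO, so a fall to 1 or below cannot appear in the table, although ratios near 1 do. In whole liver, a change in the number of cells of a type and a change in RNA per cell cannot be told apart.

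The peaks lay mostly around the stop codon and in the coding sequence (GRCm38, placed on GENCODE M21 transcripts). Klf2 (ENSMUSG00000055148, plus strand of chromosome 8) had a 5′ peak from 72319074 to 72319916, over exons 1 and 2, and a stop codon peak from 72320769 to 72321310, in exon 3, with 151 nt in the coding sequence and 391 nt in the 3′ UTR. Klf4 (ENSMUSG00000003032, minus strand of chromosome 4) had a peak within the coding part of exon 3 from 55530014 to 55530925 and a stop codon peak in exon 5 from 55527603 to 55528278. Klf6 (ENSMUSG00000000078, plus strand of chromosome 13) had a coding peak in exon 2 from 5864822 to 5865170 and a peak in the 3′ UTR from 5867435 to 5868005, which began 154 nt after the stop codon. Klf10 (ENSMUSG00000037465, minus strand of chromosome 15) had a start peak over exon 1 from 38300503 to 38300749, of which 99 of 247 nt lay outside the transcript, and a stop codon peak in exon 4 from 38295563 to 38296124. No peak overlapped another annotated gene.

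The m6A consensus GGACT was searched on the transcript strand of each peak. It was present in 6 of the 8 peaks, and in 40.1% of the 9612 peaks that cover a like length of transcript, 148 to 912 nt. The Klf peaks were long within that range, with a median of 564.5 nt on the transcript against 279 nt. Among peaks within 10% of each Klf peak's own length, 47.4% to 75.7% held GGACT for 7 of the Klf peaks and 16.0% for the short Klf10 start peak. The stop codon peak of Klf2 held no GGACT but 2 copies of GGACA and 1 of GGACC, and the start peak of Klf10 held no GGAC at all. Sites are shown for 1 peak or more of each gene, because they are the candidate m6A positions under peaks that kept their enrichment (Klf2, Klf4) and under peaks that did not (Klf6, Klf10). Capitals mark the 5-base motif, with its A at position 3. These are matches of letters, and m6A at a single base was not measured.

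Klf2 stop codon peak, GGACA with its A 100 nt past the stop codon and 4 nt from a summit, chr8:72321005-72321029: ttggaccttaGGACAgagccggaca
Klf2 5′ peak, GGACT in the coding sequence, chr8:72319475-72319499: acaacgtgttGGACTtcatcctctc
Klf4 exon 3 peak, GGACT in the coding sequence with its A at a summit (distance 0 nt), chr4:55530143-55530167: ctccccaccaGGACTacccctacac
Klf4 stop codon peak, GGACT in the 3′ UTR, 41 nt from a summit, chr4:55527792-55527816: gaacatgcccGGACTtacaaaatgc
Klf6 exon 2 peak, GGACT in the coding sequence, 34 nt from the summit, chr13:5864919-5864943: gtcccccagaGGACTctctgatcag
Klf6 3′ UTR peak, GGACT 95 nt from a summit, chr13:5867911-5867935: ctgtgtgaaaGGACTttctggtgtc
Klf10 stop codon peak, GGACT in the 3′ UTR, 193 nt from a summit, chr15:38295591-38295615: tacacattggGGACTttgtttttgc

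The summits nearest to a printed site lay 0 to 41 nt away in the Klf2 stop codon peak, both Klf4 peaks and the Klf6 exon 2 peak, and 95 to 193 nt away in the other 3. GGACT was printed where a peak held it, and in those 3 peaks other GGAC sites lay nearer to a summit. They were GGACC at 46 nt in the Klf2 5′ peak, GGACC at 34 nt in the Klf6 3′ UTR peak and GGACA at 72 nt in Klf10. No source used here says whether positions start at 0 or 1, so these distances can be off by 1 nt.

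**Figure D1:**
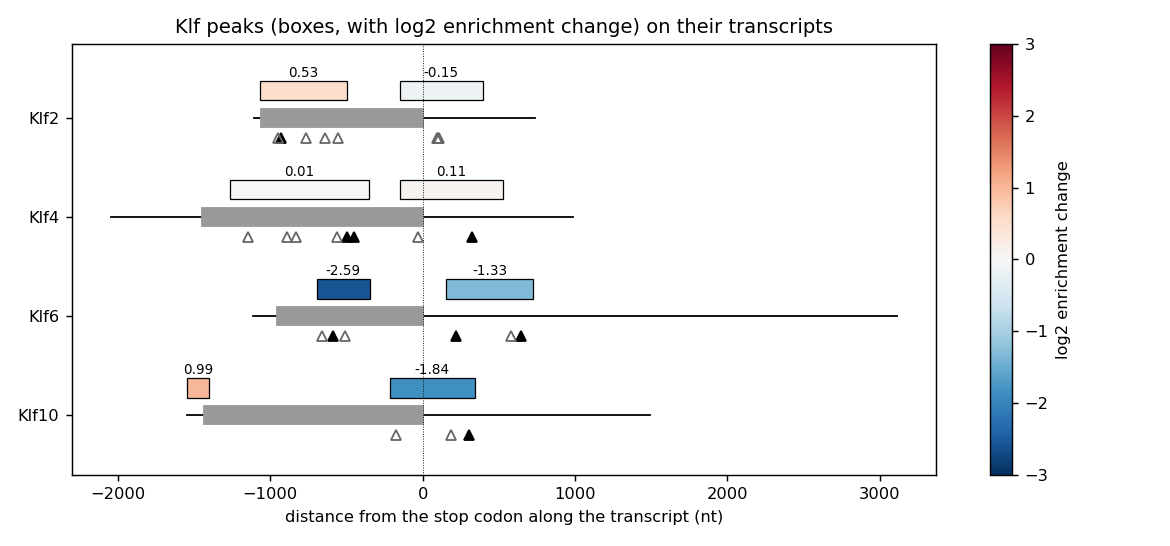
Transcripts of the 4 Klf genes drawn to scale and aligned at the stop codon (x axis, nt along the transcript; thick grey, coding sequence). Boxes are the 8 peaks with their log2 enrichment change, HKO over flox, filled triangles are GGACT and open triangles GGACA or GGACC. The Klf6 peaks (-2.59 and -1.33) and the Klf10 stop codon peak (-1.84) are blue, while the Klf2 and Klf4 peaks lie between -0.15 and 0.53.

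Enrichment differed in direction and size between the genes. It was lower in HKO at 3 of the 8 peaks, both Klf6 peaks and the Klf10 stop codon peak, where 24.3% of all peaks were lower. It was higher at 0 of 8, where 6.25% of all peaks were higher. Read apart, input was higher at 4 of 8 peaks (14.6% of all peaks) and IP at 3 of 8 (17.4%), all of them in Klf6 and Klf10. IP was lower at 0 of the 8 peaks (18.9% of all peaks). The median log2 change over all peaks was 0.22 for input, 0.13 for IP and -0.04 for enrichment. As the genes were chosen with these reads known, nothing about Klf genes as a group is read from the counts.

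**Figure D2:**
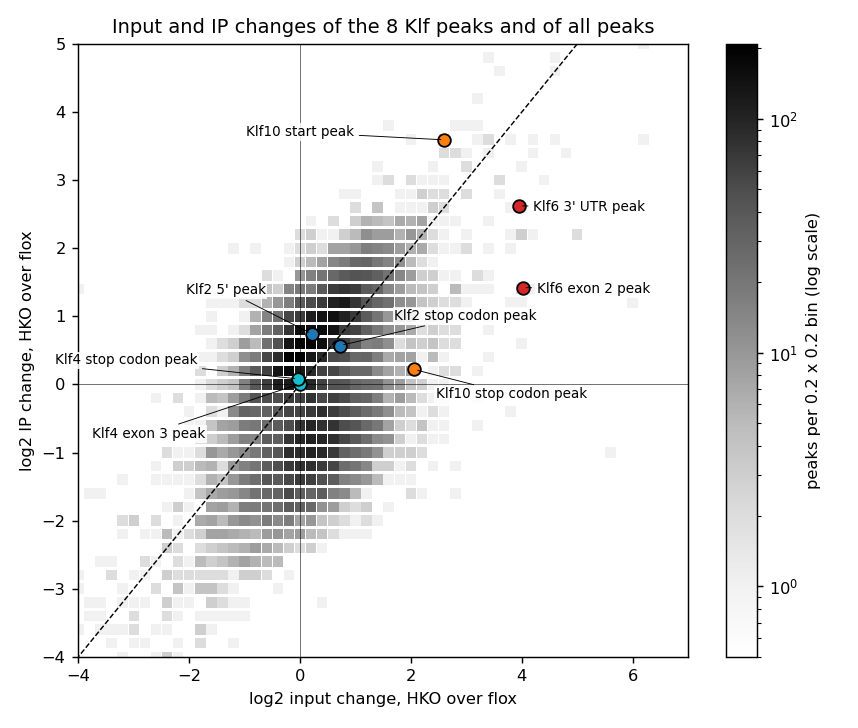
Log2 change of input (x axis) against log2 change of IP (y axis), HKO over flox, for the 8 Klf peaks (coloured points) and for all 12815 peaks (grey bins, 0.2 on each side; peaks beyond the axes are not drawn). On the dashed line enrichment is equal in both genotypes. The 4 Klf2 and Klf4 peaks lie near the line, and the Klf6 peaks and the Klf10 stop codon peak lie below it.

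Klf2, the flow-induced endothelial factor, kept its strong peak. At its stop codon peak the IP held 2006 reads in flox and 2889 in HKO, and the input held 184 and 374. In RPM these were 113 and 168 for IP and 12.4 and 20.4 for input, so both fractions were at a higher level in HKO, by less than 2-fold. Flox enrichment was 9.13 (95% counting interval 7.86 to 10.6) and HKO enrichment 8.21 (7.38 to 9.15), so that log2 enrichment changed by -0.15 (-0.42 to 0.11), or by 0.12 when libraries were scaled by their reads in peaks. This peak was above 96.7% of all peaks by enrichment in flox and above 97.3% in HKO.

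The 5′ peak of Klf2 had 563 of its 843 nt in the coding sequence and 276 nt outside the exons, and it was weaker. It held 842 and 1366 IP reads and 271 and 386 input reads. Flox enrichment was 2.61 (2.28 to 2.99) and HKO enrichment 3.76 (3.36 to 4.21), and the log2 change of 0.53 (0.27 to 0.78) stayed under 2-fold. Subtracting this change from that of the stop codon peak gave -0.68 (-1.05 to -0.31). The inputs of the 2 peaks also changed unequally, by 0.21 at the 5′ peak and 0.72 at the stop codon peak.

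Klf4, which shares roles with Klf2 in endothelium, had nearly the same levels in both genotypes in each fraction. At its stop codon peak 362 IP and 39 input reads were counted in flox, against 371 and 47 in HKO. Enrichment there was 7.64 (5.51 to 10.6) and 8.26 (6.12 to 11.2), and log2 enrichment changed by 0.11 (-0.53 to 0.75). The exon 3 peak held 401 and 391 IP reads and 53 and 65 input reads, with enrichment of 6.27 and 6.33 and a log2 change of 0.01 (-0.54 to 0.57). The input held few reads, so changes of up to about the size of these intervals could not be seen at this depth. Over both peaks, input changed by -0.01 (-0.41 to 0.38) and IP by 0.04 (-0.10 to 0.19) on the log2 scale.

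Klf6, the injury response factor, had the largest input difference of the 4 genes. At its 3′ UTR peak the input rose from 33 reads in flox to 643 in HKO, and at its exon 2 peak from 26 to 534. Both inputs were about equally raised, 15.4-fold and 16.2-fold in RPM, with log2 changes of 3.95 (3.45 to 4.45) and 4.01 (3.46 to 4.57). The difference between these 2 changes was -0.07 (-0.81 to 0.68). Summed over both peaks, the log2 input change of 4.0 (3.63 to 4.37) was above that of 99.8% of the genes with a peak.

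The IP of Klf6 rose less than its input, and not by the same amount at both peaks. IP reads went from 220 to 573 at the exon 2 peak, a 2.68-fold rise in RPM, and from 199 to 1193 at the 3′ UTR peak, a 6.16-fold rise. At exon 2 flox enrichment was 6.89 (4.62 to 10.3) and HKO enrichment 1.14 (1.02 to 1.29), which is a log2 change of -2.59 (-3.19 to -1.99). Only 0.796% of all peaks had a lower change. This peak was called in flox alone. At the 3′ UTR enrichment was 4.95 (3.44 to 7.12) and 1.98 (1.80 to 2.17), a log2 change of -1.33 (-1.87 to -0.78), and the peak was called in both genotypes. The 3′ UTR peak retained more of its enrichment, by 1.27 (0.46 to 2.08) on the log2 scale. The changes in IP reads alone differed by 1.20 (0.89 to 1.51) between these peaks, almost the whole of that gap. The exon 2 peak entered the table through its flox call alone, which favours a larger fall there. Neither interval covers this effect of how peaks were listed.

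Klf10, the TGF-β inducible gene, had 1 peak that lost enrichment and 1 that was called in HKO alone. At its stop codon peak the input rose from 161 reads to 827, 4.17-fold in RPM, while the IP counts were 889 for flox and 1003 for HKO, 1.16-fold in RPM. Flox enrichment was 4.63 (3.91 to 5.47) and HKO enrichment 1.29 (1.18 to 1.42), for a log2 change of -1.84 (-2.12 to -1.56). The peak was called in both genotypes. Its enrichment in HKO was above that of 9.14% of all peaks.

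At the start peak of Klf10 the flox libraries held only 18 IP and 12 input reads, against 221 and 96 in HKO. IP and input both rose, 12.1-fold and 6.08-fold in RPM. Flox enrichment was 1.23 (0.61 to 2.49) and HKO enrichment 2.44 (1.92 to 3.10), and the peak was called in HKO alone. The log2 change of 0.99 (-0.09 to 2.06) lay at the 2-fold limit, and it was past it with scaling by reads in peaks (1.26), with centring on the median of all peaks (1.03) and with the input of the whole gene as denominator (1.48). The stop codon peak changed by -2.83 (-3.94 to -1.72) relative to the start peak. The start peak entered the table through its HKO call alone, and a 2-fold fall from 1.23 could not appear there. The way peaks were listed thus favours this difference, and nothing is read from it.

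**Figure D3:**
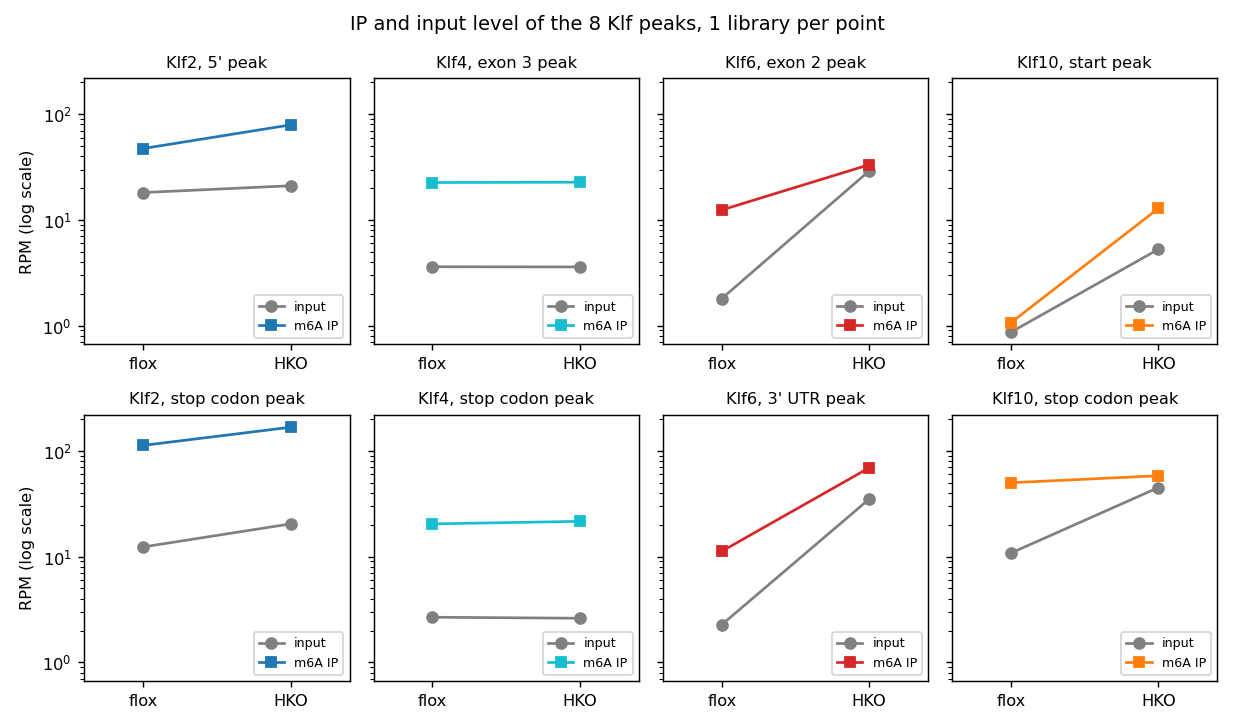
RPM of IP (coloured squares) and input (grey circles) in flox and HKO for each of the 8 Klf peaks, on a log axis, 1 library per point. The gap between the lines is the enrichment. It is kept in Klf2 and Klf4, and it narrows at both Klf6 peaks and at the Klf10 stop codon peak as the input lines rise.

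Set side by side, the 4 peaks nearest the 3′ end fell into 2 pairs. The log2 change at the Klf6 3′ UTR peak minus that at the Klf2 stop codon peak was -1.17 (-1.78 to -0.57), and minus that of Klf4 it was -1.44 (-2.28 to -0.60). For the Klf10 stop codon peak the same differences were -1.69 (-2.07 to -1.30) and -1.95 (-2.65 to -1.25). Between Klf4 and Klf2 the difference was 0.27 (-0.43 to 0.96), and between Klf10 and Klf6 it was -0.51 (-1.12 to 0.09), and both of these intervals include 0. These 6 differences were picked with the values known.

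The order of the input levels also changed. Per kilobase of peak, flox input was 21.99 RPM for Klf2, 14.4 for Klf10, 4.36 for Klf6 and 3.91 for Klf4. In HKO it was 69.7 for Klf6, 62.2 for Klf10, 29.9 for Klf2 and 3.87 for Klf4. Klf6 went from the level of Klf4 to the highest of the 4. Per kilobase IP levels in HKO ran from 27.9 RPM for Klf4 to 178 for Klf2, which had the highest IP level in both genotypes. Peak width was counted on the genome. It held 276 nt outside the exons for Klf2 and 99 nt outside the transcript for Klf10, so their levels are not per kilobase of transcript.

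Candidates were 4835 genes with at least 50 reads in each of the 4 libraries and no predicted (Gm or Rik) name. Among them, the genes nearest to each Klf gene in the pair of log2 input and IP changes were sought. For Klf2 they were Plvap, Ftsj3 and Sipa1, at distances of 0.0077 to 0.023. For Klf4 they were Lect2, Arf3 and Prn, at distances of 0.011 to 0.031. For Klf6 no gene was as close: Ccn1, which encodes a matricellular protein, was at 0.52 and the transcription factor genes Fos and Myc at 0.75 and 0.99. For Klf10 they were Gimap9, Pla2g15 and Bcl9l, at 0.067 to 0.24. With 4 libraries this is a description of 2 numbers per gene.

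The other KLF and SP genes, which share the zinc fingers, showed a different mix of IP and input. Of 13 other Klf genes on the list 6 had a peak, and of 9 Sp genes 2 did. By the strongest peak of each gene, that with the highest mean log2 enrichment, 4 of these 8 were lower in HKO (27.2% of all genes) and 0 higher. They were Klf13 with a log2 change of -1.87 (-2.09 to -1.65), Klf12 with -1.67 (-2.85 to -0.50), Sp1 with -1.38 (-2.11 to -0.65) and Klf9 with -1.24 (-1.39 to -1.09). Klf3 had -0.88, Klf1 -0.69, Klf15 0.58 and Sp3 0.62. When the peak with the most IP reads was taken, 7 of the 8 were lower (30.3% of all genes by the same choice), from -1.03 for Klf3 to -1.87 for Klf13, with Klf15 at -1.49 (-1.60 to -1.38) and Sp3 at -1.52 (-1.86 to -1.17). Klf1 alone, at -0.69, was not.

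In several of these relatives the IP reads themselves were lower. At Klf15, a glucocorticoid-induced regulator of gluconeogenesis, the peak with the most IP reads fell from 8871 IP reads to 2008, with 2428 and 1954 input reads. At Klf9, another glucocorticoid-induced gene, it fell from 8135 to 2047, with 1015 and 765 input reads. At Klf13 it fell from 3895 to 1051, with 373 and 465 input reads. By this peak IP was lower in 6 of the 8 genes, where 23.4% of all genes were lower by the same choice, and higher in 0. The peak was chosen on the IP reads of both genotypes summed, so its IP level is not independent of the choice. At both Klf6 peaks and the Klf10 stop codon peak, by contrast, enrichment was lower while the IP level was higher or nearly level. Input had risen more than IP there, which was not so at the Klf10 start peak. Sp1 was of that kind too, with 117 and 134 IP reads and 24 and 93 input reads.

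**Figure D4:**
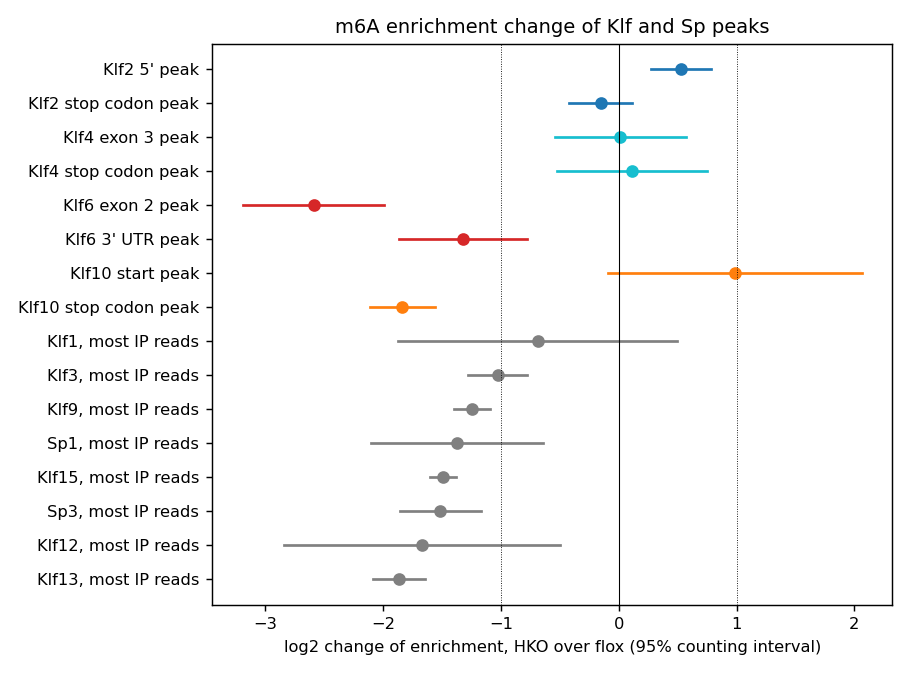
Log2 change of m6A enrichment, HKO over flox (points), with 95% counting intervals (bars), for the 8 Klf peaks (coloured) and for the peak with the most IP reads in each of 8 other Klf and Sp genes (grey). Dotted lines mark a 2-fold change. The Klf2 and Klf4 peaks lie between the dotted lines, and 7 of the 8 grey points lie below -1.

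Genes that act upstream or downstream of KLFs were mixed. Of 15 upstream genes on the list 9 had a peak, 3 were lower in enrichment by their strongest peak, near the 27.2% of all genes, and 0 higher. The genes with the strongest peaks were Mapk7, which encodes the kinase ERK5 and had a log2 change of -1.58 (-2.70 to -0.46) from only 8 flox input reads, Map3k3 with 0.20, the TGF-β receptor gene Tgfbr2 with -0.26 and Ccm2 with 0.47. The Ccm2 value came from a peak with 50 IP and 12 input reads in flox, and with reads summed over its 3 peaks the change was -1.67 (-1.93 to -1.41), while that of Tgfbr2 was -0.82 (-1.23 to -0.42). Of 13 cofactor and ubiquitin ligase genes 6 had a peak, with 2 lower and 0 higher, also near the share of all genes. The acetyltransferase gene Crebbp had -1.57 (-1.99 to -1.14), its relative Ep300 -0.92, the ubiquitin ligase gene Fbxw7 -0.88 and the corepressor gene Ctbp2 0.09. Of 12 known KLF targets 9 had a peak, with 3 lower (27.2% of all genes were lower) and 0 higher in enrichment and, by summed input, 3 higher and 1 lower (13.4% of all genes were higher). Input of Cdkn1a, which encodes the cell cycle inhibitor p21, rose from 137 to 488 reads, and that of Smad7, an inhibitor of TGF-β signalling, from 85 to 272. Thbd, an endothelial target of KLF2 that encodes thrombomodulin, had 171 and 158 input reads and a log2 enrichment change of 0.37 (-0.01 to 0.76). Becn1, an autophagy gene, had 0.44 (0.02 to 0.86).

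Marker genes of liver cells and of the early stress response were read beside these values. Of 15 immediate-early and stress genes 12 had a peak, and their summed input was higher in 10 (13.4% of all genes) and lower in 0, with a median log2 change of 2.21. By the strongest peak, 8 of these 12 were lower in enrichment (27.2% of all genes), with a median of -1.68. With reads summed over the peaks of a gene, 11 of the 12 were lower (25.8% of all genes), with a median of -1.70, and Jund was the exception. Klf6 (4.0) and Klf10 (2.11) lay within the range of that list in input, -0.55 to 6.14. Klf2 (0.44) and Klf4 (-0.01) did too, so that range does not set Klf6 and Klf10 apart. The summed input of the immediate-early and stress genes was 825 RPM in flox and 3178 in HKO. Fosb, Hspa1a and Ier3 had no peak, and the part of this list in the Klf6 and Klf10 values was not tested.

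Endothelial markers, 10 of 12 with a peak, had a summed input of 196 RPM in flox and 144 in HKO. Of these genes 0 were higher in input (13.4% of all genes) and 0 lower, and Stab1 and Stab2 had no peak. By their strongest peak 1 of 10 was lower in enrichment (27.2% of all genes) and 0 higher, with a median of 0.33. Over all genes the median was -0.13 and the 95th percentile 1.07, or -0.23 and 0.93 by summed reads. Among the endothelial markers Kdr, which encodes a VEGF receptor, had 0.60 (0.37 to 0.84). The lowest was Tek at -1.04, with 20 flox input reads, and the other 9 lay from 0.08 to 0.60. The stop codon peak of Klf2 (-0.15) was below those 9 and that of Klf4 (0.11) among them, and both also lay within the ranges of the hepatocyte, Kupffer and stellate lists. Kupffer and macrophage markers, 9 of 10 with a peak (Adgre1 had none), had a summed input of 362 and 584 RPM. Their median enrichment change was 0.20 by the strongest peak, with 1 lower (27.2% of all genes) and 1 higher. By summed reads it was 0.34, with 0 lower (25.8% of all genes) and 0 higher. Stellate markers, 7 of 10 (Dcn, Des and Reln had none), had 68.7 and 77.4 RPM and a median of 0.87, or 0.57 by summed reads. By either, 2 were higher and 0 lower (27.2% and 25.8% of all genes were lower). For the counts called higher, a 2-fold rise lay near the 95th percentile of all genes (1.07, or 0.93 by summed reads). Of all peaks, 6.25% were higher. Hepatocyte genes, 7 of 10, had 9045 and 8478 RPM, and by either choice 0 were lower in enrichment (27.2% and 25.8% of all genes) and 0 higher. Their median was 0.52 by the strongest peak and -0.32 by summed reads, so its sign depended on the choice of peak. By summed reads, flox enrichment was only 1.01 to 1.78 in Alb, Ttr, Fgb, Apoa1 and Apob. As listed peaks stay above 1, a 2-fold fall could not appear for these genes by either choice. Among hepatocyte genes, only Hnf4a (2.2) and Ass1 (2.89) had room for such a fall. The count of 0 lower therefore does not show that hepatocyte genes kept their enrichment. Cholangiocyte markers had a peak in 2 of 6 genes, and both were higher in input (13.4% of all genes). Cftr, Epcam, Krt19 and Krt7 had no peak. Sox9 rose from 8 to 118 input reads and Spp1 from 187 to 536, and their summed input was 13.0 RPM in flox and 35.6 in HKO. By summed reads the log2 enrichment change of Sox9 was -2.69 and that of Spp1 -0.03. Of 6 lymphocyte markers Ptprc alone had a peak, with 20 and 46 input reads, a log2 input change of 0.87 and a log2 enrichment change of 0.46. Input was thus higher at these 2 cholangiocyte markers and at Klf6 and Klf10. The part of cholangiocytes in those values was not tested. Which cells the Klf reads came from was not measured, and the part of cell composition in these values was not tested.

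**Figure D5:**
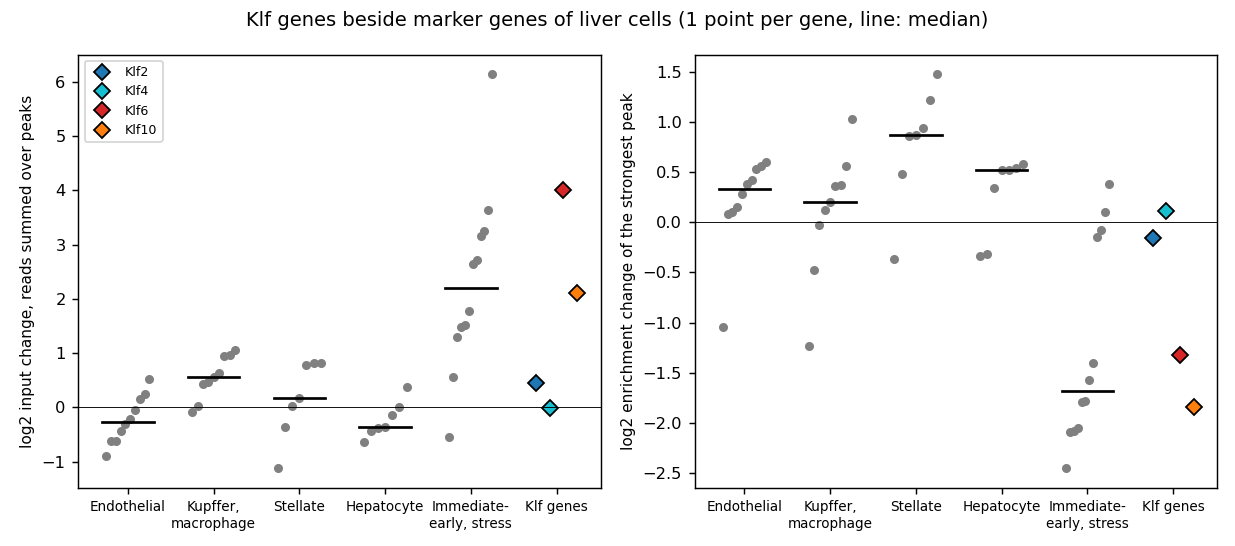
Log2 input change of reads summed over peaks (left) and log2 enrichment change of the strongest peak (right), HKO over flox, 1 point per gene with the median as a line, for marker genes of liver cells, immediate-early and stress genes and the 4 Klf genes (diamonds). All 4 Klf genes lie within the range of the immediate-early genes in both panels. The enrichment changes of Klf2 (-0.15) and Klf4 (0.11) also lie within the ranges of several of the cell type lists.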

How the data were processed

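The table of merged peaks holds, per the file headers, read counts and RPM for 4 libraries, with no normalization of the counts. The RPM deposited by the authors is the count plus 1, scaled to the library total, from which the library totals were computed. Enrichment was deposited as a fold ratio, IP RPM over input RPM. A column deposited by the authors holds the log2 ratio of HKO to flox enrichment and was not used. Of the other value columns, counts and RPM were used, and enrichment was computed again from the counts. The submitters' notes name BWA 0.7.12-r1039, MACS2 2.1.0, FastQC, HOMER and GRCm38, while exomePeak is the caller in the methods of the study. BWA does not split reads at introns, so reads across exon junctions can be missed. Strand and duplicate handling are not given in the sources used here.

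Rows were reduced to distinct peaks, with 1 added to each count. Counting intervals came from the reads of the libraries compared. Changes of at least 2-fold were called, since 1 library per group allows no test. Genes named were all peaks of the 4 Klf genes, all other Klf and Sp genes with a peak, up to 4 genes per list with the strongest peak, and the 3 nearest genes of each Klf gene. Members and lists were chosen with earlier results of these data known. Peaks were placed on basic GENCODE M21 transcripts. The calculations were tested on simulated data. Tools were Python 3.11.15, numpy 2.4.6, pandas 2.3.3 and matplotlib 3.10.9.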

Additional observations from a re-analysis of the deposited data

How the results depend on the processing

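No paired analysis was possible because each genotype and fraction had 1 library. The counts of peaks lower in enrichment (3), higher in input (4) and higher in IP (3) stayed at 2 to 3, 3 to 5 and 2 to 4 under every setting run for them: 1.5-fold and 3-fold sizes, scaling by reads in peaks, centring, and, for some, 0.5 added to counts, deeper peaks, peaks called in both genotypes or the input of the whole gene. The count higher in enrichment became 1 at 1.5-fold, with scaling by reads in peaks and with centring, each time through the Klf10 start peak. Scaling by reads in peaks raised log2 enrichment changes by 0.27, to 0.80 at the Klf2 5′ peak and 0.12 at the Klf2 stop codon peak, whose direction thus turned. The input of the whole gene also turned the latter, to 0.13. The same scaling gave log2 IP changes of 0.87 for Klf2, 0.29 for Klf4, 2.36 for Klf6 and 0.72 for Klf10, whose median over peaks was 1.91. Centring on all genes gave Klf2 a log2 input change of 0.23. With the peak of most IP reads, 7 in place of 4 of the other Klf and Sp genes were lower. Reads summed over peaks, an alternative for the gene lists chosen after seeing the data, gave 11 in place of 8 early response genes lower. The flox inputs of Klf6 (26 and 33 reads) and of the Klf10 start peak (12) limit those values.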
